A study of Homo sapiens with 12 samples.

Results

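The genes described here encode the subunits of the 3 nuclear RNA polymerases. They were taken by symbol, as protein-coding genes whose names begin with POLR1, POLR2 or POLR3 followed by letters and at most 1 digit. That gave 31 of the 57773 genes in the RNA tables, under 30 symbols, since POLR2J2 has 2 Ensembl entries. One of these entries (ENSG00000267645) has a listed length of only 12 bases and held at most 5.06 reads in any bound library, so its values rest on almost nothing and are named apart. A further 9 genes with matching symbols were of other gene types and were left out. The 4 footprint sheets held 30 of the 31 among 19892 genes.

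RNA polymerase I transcribes the large ribosomal RNA precursor, RNA polymerase II transcribes messenger RNAs and many small RNAs, and RNA polymerase III transcribes transfer RNAs, 5S ribosomal RNA and other short RNAs. Each enzyme has a catalytic core of large subunits surrounded by smaller ones, and some of the small subunits are built into every one of the enzymes. The messengers of all of them are made in the nucleus and translated in the cytoplasm, so each can be met on chromatin as a new transcript and in the cytoplasm as a mature one. By known role the members fall into 3 genes of RNA polymerase I alone, 2 shared by I and III, 11 of RNA polymerase II with its associated paralogs, 5 shared by all the enzymes and 10 of RNA polymerase III.

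The study mapped RNA near chosen places in the cell by Proximity-CLIP, in which a peroxidase biotinylates the proteins around it and the RNA crosslinked to those proteins is recovered on streptavidin. All groups were HEK293 T-REx cells, a human embryonic kidney line with an inducible transgene system, and each received 4-thiouridine and doxycycline for 16 hours and biotin-phenol for 30 minutes before labelling and crosslinking. The lines expressed APEX2 with a nuclear export signal (APEX2-NES, cytoplasm), APEX2 fused to histone H2B (H2B-APEX2, chromatin) or APEX2 fused to the gap junction protein connexin 43 (Connexin43-APEX2, cell contacts), and a T-REx line served as the negative control. Total RNA, bound RNA and protein-protected footprints were taken from each of the 4 lines, giving 12 groups of 1 sample, so no p-value is given. Bound RNA of the negative control, APEX2-NES and Connexin43-APEX2 appears in a table of 2016 and again in one of 2017. The labels do not say whether those are repeat runs of 1 sample or separate cultures. They carry the same label and count as 1 replicate, and H2B-APEX2 is in the 2017 table only.

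The 12 RNA libraries held 8959049 to 56785950 reads over genes, of which the members took 0.0891% to 0.248% of those on protein-coding genes. The values are RPKM, which are reads scaled to gene length and library size, as the authors deposited them. The library total behind an RPKM was 1.32 to 4.64 times the sum of the listed reads, so levels in different libraries do not share 1 scale and line comparisons below are centred on the median gene. Of 7 genes that mark HEK293 cells and were in the tables, at most 3 reached 1 RPKM in a library, and only INA and VIM reached the level asked in the line comparisons. Of 10 fibroblast-like matrix genes, 9 reached 1 RPKM in bound RNA of the negative control in both tables and 1 did in that of H2B-APEX2.

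The member with the highest bound level was POLR2L, the small zinc-binding subunit common to all the enzymes, with a median of 13.6 RPKM over the 7 bound libraries. POLR2J, a core assembly subunit of RNA polymerase II, followed with 8.67, then POLR2E, a shared subunit of the jaw that grips DNA, with 7.52, and POLR2I, an RNA polymerase II subunit whose yeast counterpart acts in transcription accuracy, with 6.31. The large catalytic subunits were lower per length. POLR2A, the largest subunit of RNA polymerase II, had a median of 2.57 RPKM and its partner POLR2B 1.31. POLR3A had 0.738, POLR1A 0.641, POLR3B 0.343 and POLR1B 0.262. The lowest of all was POLR2M, an RNA polymerase II-associated protein, at 0.178. Most members lay near or under 1 RPKM, and 14 to 26 of the 31, depending on the comparison, reached the mean of 1 RPKM asked of a gene in a comparison.

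**Figure D1:**
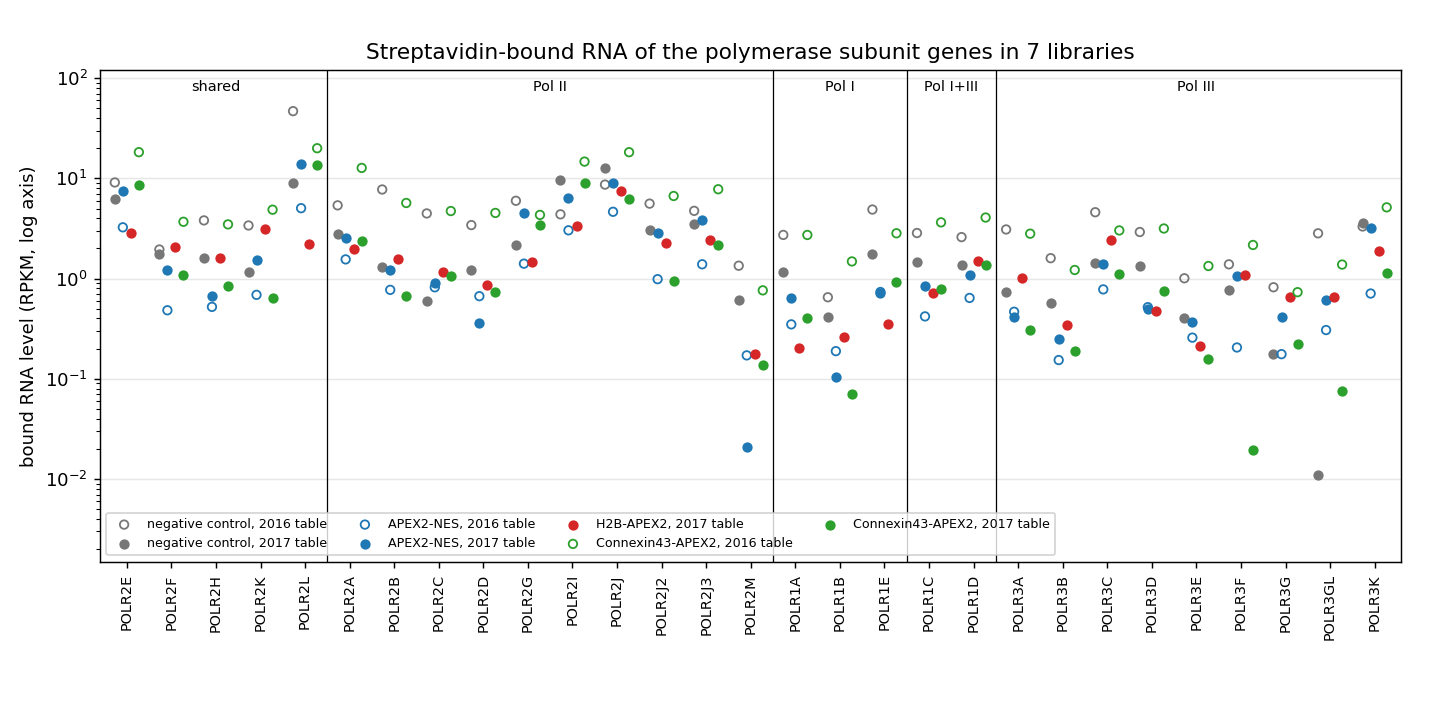
Level of each member in streptavidin-bound RNA (RPKM, log axis), with open circles for the 2016 table and filled circles for the 2017 table, grouped by the enzyme to which the subunit belongs. The 12-base entry of POLR2J2 and 1 other member are not drawn. POLR2L reaches 46.8 RPKM in the negative control of 2016 and 2.22 with H2B-APEX2, its lowest point.

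The coding starts of 5 members are shown to set 3 of the members that were at least 2-fold lower with H2B-APEX2 than with APEX2-NES beside 2 that were above 0 in that comparison without reaching 2-fold. Each line gives the first 30 bases from the start codon in GENCODE 29 on GRCh38, 5′ to 3′, with G and C in capitals.
POLR2E: atGGaCGaCGaGGaGGaGaCGtaCCGGCtC
POLR2I: atGGaGCCCGaCGGGaCttaCGaGCCGGGC
POLR2G: atGttCtaCCatatCtCCCtaGaGCaCGaa
POLR2C: atGCCGtaCGCCaaCCaGCCtaCCGtGCGG
POLR3C: atGaCtCaaGCaGaaattaaGCtCtGttCt
They lie at chr19:1095286-1095315 (POLR2E, minus strand), chr19:36114827-36114856 (POLR2I, minus), chr11:62761649-62761812 (POLR2G, plus, across an intron), chr16:57462725-57462754 (POLR2C, plus) and chr1:145825777-145825806 (POLR3C, plus). The first 3 are the lower members (POLR2E, POLR2I and POLR2G), and the last 2 are POLR2C at 0.52 and POLR3C at 0.42. Over the whole coding sequence G and C make up 60.8% of POLR2E and 60.0% of POLR2I, against 49.4% of POLR2G, 52.1% of POLR2C and 47.0% of POLR3C. POLR2I has a coding sequence of 375 bases, whereas that of POLR3C has 1602.

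The first comparison asks which subunit messengers were nearer to chromatin than to the cytoplasm. Bound minus total RNA on the log2(RPKM + 1) scale was compared between H2B-APEX2 and APEX2-NES in the 2017 table. Of the 14 members tested, 4 were at least 2-fold lower with H2B-APEX2: POLR2L, POLR2E, POLR2G and POLR2I. The single member at least 2-fold higher was the 12-base entry of POLR2J2. Over all 5055 genes tested, 25.1% were higher and 24.9% lower by the same rule, so the members' share of lower calls lay near the background. Their median difference was -0.65, against 0.08 over protein-coding genes and 0 over all genes by construction. In cultures taken whole, a lower level in every cell and a level lost from part of the cells cannot be told apart.

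POLR2L, at chr11:837355-842545 on the minus strand of hg19, lay lowest of all members. Its bound RNA was at 9.06 RPKM in the negative control, 13.9 with APEX2-NES, 2.22 with H2B-APEX2 and 13.6 with Connexin43-APEX2 in 2017, and at 46.8, 5.04 and 19.98 in the negative control, APEX2-NES and Connexin43-APEX2 in 2016. Its total RNA was at 69.1, 13.1, 45.0 and 19.0 RPKM in the order of the 2017 lines just given. In RPKM of 2017, H2B-APEX2 was thus the lowest bound library and the second highest total one. The difference from APEX2-NES was -3.93 (counting SE 0.12), and -2.30 in bound RNA alone.

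POLR2E, whose gene lies at chr19:1086593-1095598 on the minus strand of hg19, came next at -3.29 (counting SE 0.07). Its bound RNA was at 6.23 RPKM in the negative control, 7.52 with APEX2-NES, 2.84 with H2B-APEX2 and 8.49 with Connexin43-APEX2 in 2017, and at 9.10, 3.25 and 18.2 in the 3 lines of 2016. Total RNA of POLR2E was at 15.7 in the negative control, 1.46 with APEX2-NES, 9.79 with H2B-APEX2 and 7.40 with Connexin43-APEX2. The APEX2-NES total library stood far below the other 3, and in bound RNA alone the difference was -1.24.

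POLR2G (chr11:62529015-62534182, plus strand, hg19) and POLR2I (chr19:36604611-36606115, minus strand) belong to RNA polymerase II alone. POLR2G, a subunit of the stalk near the RNA exit, was at 2.14 RPKM in bound RNA of the negative control, 4.48 with APEX2-NES, 1.48 with H2B-APEX2 and 3.44 with Connexin43-APEX2 in 2017, with total RNA at 18.6, 9.92, 14.4 and 5.88 and a difference of -1.65 (counting SE 0.10). POLR2I was at 9.70, 6.31, 3.34 and 9.06 RPKM in the same bound libraries and at 23.5, 12.8, 20.2 and 7.05 in total RNA, with a difference of -1.38 (counting SE 0.13), and -0.84 in bound RNA alone, which is under the 2-fold line. In RPKM, H2B-APEX2 was the lowest of the 4 bound libraries for both genes. After centring, bound RNA of POLR2G with H2B-APEX2 lay level with the negative control, at -0.06 (counting SE 0.09). With APEX2-NES it was 0.97 above the control in 2017 and 0.10 in 2016. In 2016 bound RNA of POLR2G was at 5.98, 1.41 and 4.32 RPKM in the negative control, APEX2-NES and Connexin43-APEX2. That of POLR2I was at 4.37, 3.03 and 14.7 RPKM. In GENCODE 29, 69.7% of the 50-base stretches of POLR2I also occur in transcripts of the neighbouring TBCB and of AD001527.2, so reads of POLR2I are uncertain.

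Of the other shared subunits, POLR2K went the other way. This small zinc-binding subunit was at 1.16 RPKM in bound RNA of the negative control, 1.52 with APEX2-NES, 3.14 with H2B-APEX2 and 0.636 with Connexin43-APEX2 in 2017, and H2B-APEX2 held the most. In 2016 it was at 3.39 in the negative control, 0.688 with APEX2-NES and 4.87 with Connexin43-APEX2. Its difference between H2B-APEX2 and APEX2-NES was 0.95 (counting SE 0.14), just short of 2-fold, and its total RNA was at 0.471, 0.747, 0.473 and 0.227 in the 2017 order of lines. POLR2F, a shared subunit of the core, differed by -0.10, with 1.22 RPKM in bound RNA of APEX2-NES and 2.06 in that of H2B-APEX2, where total RNA was at 0.329 and 0.952, against 1.46 in the negative control and 0.360 with Connexin43-APEX2. POLR2H was under the level asked in this comparison, with bound RNA of 1.59 RPKM in the negative control, 0.674 with APEX2-NES, 1.59 with H2B-APEX2 and 0.847 with Connexin43-APEX2 in 2017. Its total RNA was at 1.35, 0.616, 0.972 and 0.342, and its 2016 bound levels were 3.81, 0.522 and 3.47 in the negative control, APEX2-NES and Connexin43-APEX2. POLR2F was at 1.95, 0.483 and 3.69 in those 2016 libraries and at 1.76 and 1.10 in the negative control and Connexin43-APEX2 of 2017. Of the 4 shared subunits tested, 2 were past 2-fold lower, 1 was near 0 and 1 was above 0, with a median of -1.70.

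The remaining RNA polymerase II subunits lay between. POLR2J was at -0.86, POLR2J3 at -0.73, the full-length POLR2J2 at -0.58 and POLR2C at 0.52. POLR2C had bound RNA of 0.591 RPKM in the negative control, 0.894 with APEX2-NES, 1.18 with H2B-APEX2 and 1.05 with Connexin43-APEX2 in 2017, and total RNA of 1.64, 1.82, 1.23 and 0.697. POLR2J had bound RNA of 12.6, 9.02, 7.47 and 6.24 and total RNA of 8.41, 7.41, 11.7 and 4.87. For POLR2J the negative control was the highest bound library of 2017 in RPKM. On TMM-scaled reads APEX2-NES was only -0.08 from it, H2B-APEX2 -0.33 and Connexin43-APEX2 -0.34. In 2016 bound RNA of POLR2J was at 8.67 RPKM in the negative control, 4.64 with APEX2-NES and 18.2 with Connexin43-APEX2. For POLR2C the H2B-APEX2 and Connexin43-APEX2 bound libraries of 2017 lay close together. On TMM-scaled reads of 2017 they were 1.40 and 1.49 above the negative control, and APEX2-NES was 0.99 above it. In 2016 Connexin43-APEX2 was 0.41 above it and APEX2-NES 0.27. Of all genes with at least 50 reads, 25.2% were at least 2-fold higher with H2B-APEX2, and 7.49% were in both tables with Connexin43-APEX2. Of RNA polymerase III, POLR3C was at 0.42 and POLR3K at -0.83 in H2B-APEX2 minus APEX2-NES. POLR3K had bound RNA of 3.57, 3.23, 1.88 and 1.14 and total RNA of 1.87, 0.787, 1.14 and 0.132 in the 2017 order of lines. No subunit of RNA polymerase I, nor the 2 shared by I and III, reached the level asked.

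Among the catalytic subunits, POLR2A was the only one tested here, at -0.49 (counting SE 0.06). Its bound RNA was at 2.75 RPKM in the negative control, 2.57 with APEX2-NES, 1.98 with H2B-APEX2 and 2.35 with Connexin43-APEX2 in 2017, and at 5.38, 1.55 and 12.7 in the negative control, APEX2-NES and Connexin43-APEX2 in 2016. Its total RNA in 2017 was at 0.775, 0.464, 0.703 and 0.472 in the same line order. The 2017 bound levels of POLR2A were close to each other. POLR2B was at 1.31, 1.21, 1.56 and 0.663 RPKM in the 4 bound libraries of 2017 and at 7.74, 0.772 and 5.68 in the 3 of 2016, with total RNA at 0.192, 0.182, 0.322 and 0.260. In RPKM, POLR2B was lowest with Connexin43-APEX2 in 2017 and with APEX2-NES in 2016. The 2016 APEX2-NES library was low in general, with a protein-coding median of 0.144 RPKM against 0.901 in the negative control and 0.754 with Connexin43-APEX2. After centring, Connexin43-APEX2 minus APEX2-NES was 0.20 for POLR2B in 2016 and -0.35 in 2017.

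The catalytic subunits of the other enzymes were mostly under 1 RPKM in 2017. POLR1A, the largest subunit of RNA polymerase I, was at 1.15 RPKM in bound RNA of the negative control, 0.641 with APEX2-NES, 0.204 with H2B-APEX2 and 0.404 with Connexin43-APEX2, and at 2.73, 0.349 and 2.72 in the 2016 libraries. POLR1B, its partner, was at 0.410, 0.104, 0.262 and 0.0698 in 2017 and at 0.651, 0.189 and 1.48 in 2016. In RPKM of 2017, POLR1A was lowest in H2B-APEX2, and POLR1B was lowest in Connexin43-APEX2. POLR3A, the largest subunit of RNA polymerase III, was at 0.738, 0.411, 1.01 and 0.305 in 2017 and at 3.09, 0.467 and 2.81 in 2016. POLR3B was at 0.567, 0.250, 0.343 and 0.189 in 2017 and at 1.60, 0.154 and 1.22 in 2016. Total RNA of these 4 catalytic genes lay at or under 0.283 RPKM in every 2017 library, the highest being POLR3A in H2B-APEX2. For POLR3A the highest of the 2017 bound libraries was H2B-APEX2, and for POLR3B it was the negative control.

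A reading on reads rather than RPKM brought in more of these genes. With log2 CPM (reads scaled to library size, here by TMM) and at least 50 reads on average over the bound libraries, chosen after the data were seen, 29 members entered H2B-APEX2 minus APEX2-NES. Of these, 4 were at least 2-fold higher and 8 lower, against 31.9% and 26.3% of 12947 genes. POLR1B was 1.98 higher, from 112 and 30 bound reads and 25 and 74 total reads in H2B-APEX2 and APEX2-NES. POLR2K was 1.86 higher, POLR1D 1.11 and POLR2C 1.10. POLR1D is shared by RNA polymerases I and III, and POLR2C is an assembly subunit of RNA polymerase II. The lower side included POLR2L at -4.27, POLR2E at -3.99, POLR2G at -1.98, POLR2I at -1.42, POLR3GL at -1.42, POLR1C at -1.18 and POLR3K at -1.17. The minimum covers bound reads only, and some total counts were low. Total reads in H2B-APEX2 and APEX2-NES were 14 and 9 for POLR3GL and 20 and 19 for POLR1C, so these 2 values are uncertain. POLR3K is the RNA polymerase III subunit for RNA cleavage and termination.

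In the comparison of cell contacts with chromatin, 6 of the 15 members tested were at least 2-fold higher with Connexin43-APEX2 and 0 were lower, against 25.2% higher and 24.0% lower of 4810 genes. They were POLR2L (3.61, counting SE 0.12), POLR2I (2.84, counting SE 0.14), POLR2G (2.23, counting SE 0.11), POLR2E (1.90, counting SE 0.07), POLR2J (1.13, counting SE 0.14) and the 12-base entry of POLR2J2. POLR2K lay lowest at -0.84, and -1.07 in bound RNA alone. The median of the members was 0.62, against -0.05 over protein-coding genes. This comparison shares the H2B-APEX2 libraries with the one before, so its mirror image is not separate support. In bound RNA alone POLR2J was at 0.05, which ends its call. Its total RNA was at 11.7 RPKM in H2B-APEX2 and 4.87 in Connexin43-APEX2.

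**Figure D2:**
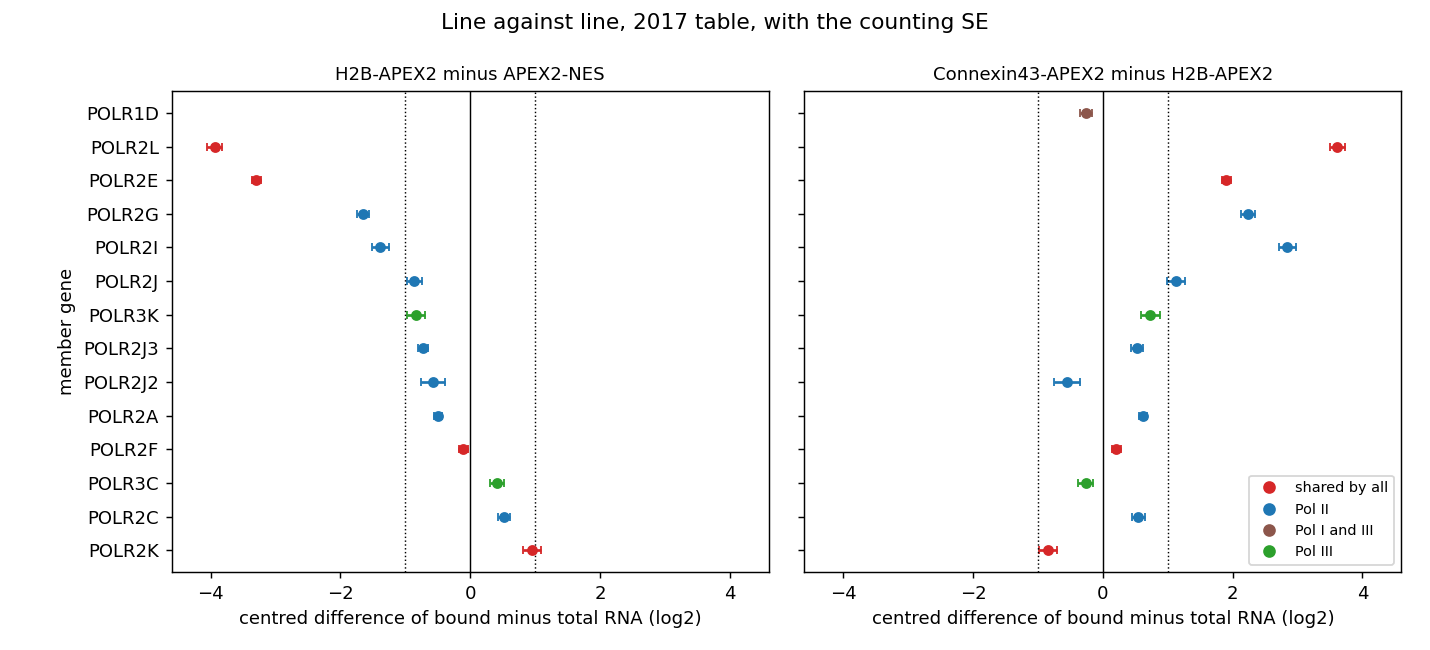
Centred difference of bound minus total RNA (log2) for each tested member in the 2017 table, H2B-APEX2 minus APEX2-NES on the left and Connexin43-APEX2 minus H2B-APEX2 on the right, with bars for the counting SE and dotted lines at 2-fold. POLR2L and POLR2E lie at -3.93 and -3.29 on the left and at 3.61 and 1.90 on the right, and POLR2K lies on the opposite side of 0 in both. The 12-base entry of POLR2J2 is left out.

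Between Connexin43-APEX2 and APEX2-NES, where both tables hold the lines, 0 of 17 members tested were past 2-fold in the same direction in both, against 0.197% higher and 4.08% lower of 5594 genes. The median difference was 0.03 in 2017 and 0.08 in 2016. The 2017 values are bound minus total RNA. Those of 2016 are in effect bound RNA alone, since the total RNA column of 2016 names no line and cancels. With 1 sample a group no test applies, and by the reading on reads the count was 0 as well. POLR2I came closest, at 1.39 in 2017 and 0.25 in 2016. POLR2E changed sign between the tables, from 0.46 in 2016 to -1.47 in 2017, where APEX2-NES total RNA is the low library named above. In bound RNA alone it was at 0.34 in 2017. POLR2C, at 0.99 in 2017, was at -0.06 in 2016. Its 2017 bound RNA was at 1.05 RPKM with Connexin43-APEX2 and 0.894 with APEX2-NES, and its total RNA at 0.697 and 1.82.

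Against the negative control, the T-REx line with no APEX2 fusion in its labels, bound RNA alone was compared. H2B-APEX2 held 1 member at least 2-fold higher, POLR2K (1.22, counting SE 0.10), and 3 lower of 19 tested. The lower ones were POLR2L (-1.36, counting SE 0.11), POLR2I (-1.02, counting SE 0.10) and the 12-base entry of POLR2J2. Among all 7543 genes, 25.2% were higher and 17.2% lower. POLR3C, which helps open promoters for RNA polymerase III, was second highest at 0.79, with 1.43 RPKM in the negative control and 2.45 with H2B-APEX2. POLR2F and POLR2B followed at 0.43 each. POLR1E, an RNA polymerase I subunit, was at -0.76, with 1.77 RPKM in the negative control and 0.348 with H2B-APEX2. The members' median was -0.06, against 0.18 over protein-coding genes.

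APEX2-NES and Connexin43-APEX2 had no member past 2-fold in both tables. Of 24 tested with APEX2-NES 0 were higher and 0 lower, against 1.65% and 1.03% of 9266 genes, and of 26 tested with Connexin43-APEX2 0 were higher and 0 lower, against 2.50% and 2.03% of 11289. POLR2L gave opposite signs in the tables. It was at -1.35 in 2016 and 0.73 in 2017 with APEX2-NES, and at -1.01 and 0.88 with Connexin43-APEX2, the negative control of 2016 being its highest library. POLR2I with APEX2-NES was at 1.22 in 2016 and -0.39 in 2017. POLR2E was above the control in both tables and both lines, at 0.39 and 0.40 with APEX2-NES and 1.11 and 0.73 with Connexin43-APEX2 in 2016 and 2017. On TMM-scaled reads POLR2E passed 2-fold with Connexin43-APEX2, at 1.33 and 1.11. With at least 50 reads it was the 1 member of 30 higher there, against 7.49% of 14198 genes.

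A few low members had almost no reads in single 2017 libraries. POLR3F, a subunit of the same promoter-opening group as POLR3C, had 2 reads in bound RNA of Connexin43-APEX2 (0.0196 RPKM), against 1.06 RPKM in APEX2-NES and 1.09 in H2B-APEX2, while in 2016 Connexin43-APEX2 held 2.16. POLR3GL, the paralog of POLR3G, had 1 read in the negative control (0.0109 RPKM), where the 2016 library was at 2.83. POLR2M had 5 reads in APEX2-NES of 2017. Each of these low points is in 1 of the 2 tables and no fold is given for it.

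The differences with H2B-APEX2 ran with the base composition of the transcripts. GC content of the longest transcript was 60.1% for POLR2L, 60.9% for POLR2I, 59.4% for POLR2E and 35.2% for POLR2K. Across the 14 members, Pearson's r between GC content and the difference of H2B-APEX2 from APEX2-NES was -0.47, and across 2857 protein-coding genes it was -0.57. Against the negative control r was -0.60 over 19 members and -0.43 over 4546 protein-coding genes, and for Connexin43-APEX2 minus H2B-APEX2 it was 0.64 over 15 and 0.63 over 2655. These points share their libraries and include the 12-base entry, so r describes them and is no test. Between Connexin43-APEX2 and APEX2-NES r over the members was 0.12 in 2017 and -0.01 in 2016.

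With the GC trend of all genes removed, POLR2L stayed at -2.76, POLR2E at -2.18 and POLR2G at -1.61 between H2B-APEX2 and APEX2-NES, whereas POLR2I went to -0.14 and POLR2K to -0.01. POLR3K, at -0.83 before, went to -1.42. Against the negative control POLR2K went to 0.74, POLR2L to -0.66 and POLR2I to -0.28, all under 2-fold. Between Connexin43-APEX2 and H2B-APEX2, POLR2L was then at 2.30, POLR2G at 2.12, POLR2I at 1.45, POLR3K at 1.28, POLR2E at 0.65 and POLR2J at 0.28. The GC content of POLR2G, whose value hardly moved, was 50.5%.

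**Figure D3:**
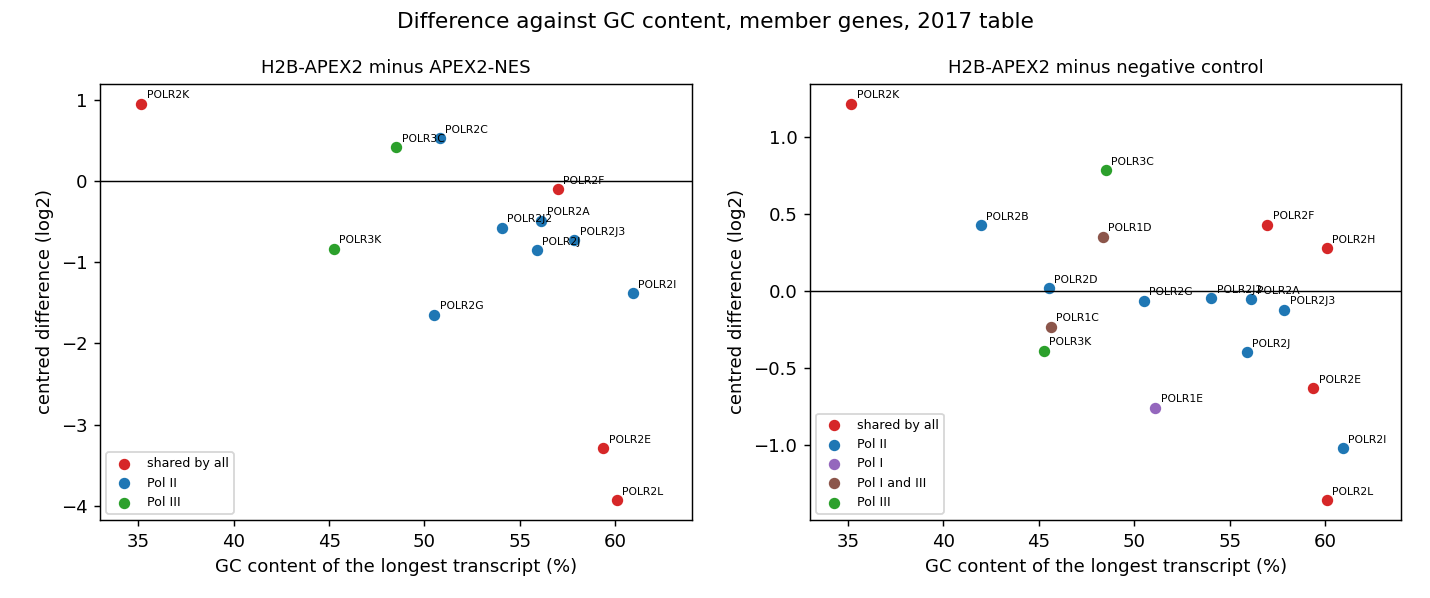
Centred difference (log2) of each tested member against the GC content of its longest transcript (%), for H2B-APEX2 minus APEX2-NES in bound minus total RNA and for H2B-APEX2 minus the negative control in bound RNA, 2017 table. POLR2K at 35.2% GC is the highest point in both panels and POLR2L at 60.1% the lowest. The 12-base entry of POLR2J2 is left out.

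Other genes of the transcription machinery were few above 1 RPKM. In H2B-APEX2 minus APEX2-NES, 1 of 1 tested RNA polymerase I factors was at least 2-fold higher (TAF1D, 2.27), as were 1 of 3 RNA polymerase II general factors (GTF2A2, 1.25), 2 of 3 RNA polymerase III factors (GTF3C6 the highest at 3.09) and 1 of 3 assembly factors (RPAP3, 2.02). MAF1, the repressor of RNA polymerase III, was at -1.92 and the only one of these lists' genes past 2-fold lower. None of the 4 polymerase subunits whose symbols do not begin with POLR reached the level asked there. Against the negative control 3 of them did with H2B-APEX2, from -0.59 (CD3EAP) to 0.44 (TWISTNB), and 0 were past 2-fold. In Connexin43-APEX2 minus H2B-APEX2, TAF1D was at -2.08, TCEA1 at -1.17, GTF3C6 at -3.01, RPAP3 at -1.84 and GPN3 at -1.18. In the comparisons without H2B-APEX2 these lists gave 0 genes past 2-fold in both tables.

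Fibroblast-like marker genes differed between lines in 5 of the 6 comparisons. All 6 tested of the 10 were lower with H2B-APEX2 than with APEX2-NES, with a median of -2.45, and their summed bound level in 2017 was 90.6 RPKM in the negative control, 65.2 with APEX2-NES, 2.76 with H2B-APEX2 and 30.8 with Connexin43-APEX2. In 2016 the sum was 436 in the negative control, 40.8 with APEX2-NES and 40.5 with Connexin43-APEX2. In both tables the bound library of Connexin43-APEX2 lists POSTN at 0. Against the negative control 7 of 7 tested were lower with H2B-APEX2, and in Connexin43-APEX2 minus H2B-APEX2 3 of 4 were higher. In Connexin43-APEX2 minus APEX2-NES, where 0 members were called, 5 of 6 were lower, with medians of -1.41 in 2017 and -1.73 in 2016. In Connexin43-APEX2 minus the negative control, again with 0 members called, 4 of 9 were lower, and in APEX2-NES minus the negative control 0 of 9 were. Of 3 erythroid genes, HBA1 and HBA2 were lower in H2B-APEX2 minus APEX2-NES, with a median of -2.08, and HBB was listed at 0 in every library. Of the HEK293 genes INA was at 1.19 and VIM at -2.05, and PAX2 was listed at 0 in bound RNA of APEX2-NES in both tables. The part of these genes in the members' differences was not tested.

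Footprints give a second readout from the same lines. The sheets hold 54 clusters with 358 crosslinked reads on members in the negative control. APEX2-NES had 176 with 1792 reads, H2B-APEX2 303 with 2984 and Connexin43-APEX2 73 with 705. The lines differed in depth, from 185487 reads in clusters in the negative control to 1741844 in H2B-APEX2. Clusters were found on 19 of the 30 members in the control line, 25 with APEX2-NES, 26 with H2B-APEX2 and 21 with Connexin43-APEX2. POLR3C and POLR3GL had none in any line. A count of 0 still allows 3 reads, or 16.2 RPM (crosslinked reads scaled to the line's total in clusters) in the negative control and 1.72 with H2B-APEX2, and this limit and all intervals below cover counting error only.

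POLR2A carried the most footprint reads, 966 over the lines. They were 80 in the negative control, 382 with APEX2-NES, 377 with H2B-APEX2 and 127 with Connexin43-APEX2, or 431, 663, 216 and 469 RPM. H2B-APEX2 was the lowest as a share. Of its 79 clusters 65 lay in coding sequence. POLR3D, POLR2E and POLR2C were also among the members with most reads, at 349, 335 and 326, and POLR2H had 326. POLR3D had 91.7 RPM in the negative control, 262 with APEX2-NES, 86.1 with H2B-APEX2 and 115 with Connexin43-APEX2. POLR2E had 146, 266, 50.5 and 248 in that order, and POLR2C 205, 196, 84.4 and 103. POLR3D is a subunit of RNA polymerase III that acts with POLR3E in start and termination. Most clusters of POLR3D (29 of 42), POLR2C (17 of 27) and POLR2D (23 of 31), the stalk partner of POLR2G, lay in the 3' UTR. POLR2K had 12 of 16 there. All 12 of POLR3K's clusters had no region given. Over the lines, coding sequence held the most clusters in 8 members, the 3' UTR in 9 and introns in 3.

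Introns held 70 of the 303 member clusters in H2B-APEX2, which is 23.1% (exact Clopper-Pearson 95% interval 18.5% to 28.3%). The share was 2.84% in APEX2-NES (0.929% to 6.50%), 2.74% in Connexin43-APEX2 (0.334% to 9.55%) and 7.41% in the negative control (2.06% to 17.9%). The interval of H2B-APEX2 touched that of no other line, though that of the negative control ended just below it. These intervals take clusters as independent, although several can lie on the same gene, and the lines differed in depth. Over all genes the intron share was 39.6% in H2B-APEX2, 5.58% in APEX2-NES, 9.47% in Connexin43-APEX2 and 14.1% in the negative control. By reads in place of clusters the share of the members in H2B-APEX2 was 13.4% and that of all genes 19.9%. Intron clusters were found on 18 members with H2B-APEX2, led by POLR3E (10 of 19 clusters), POLR2B (9 of 32) and POLR3F (8 of 17), and on 4, 2 and 4 members with APEX2-NES, Connexin43-APEX2 and the negative control. By enzyme the share with H2B-APEX2 was 28.9% for RNA polymerase I, 28.7% for III, 17.6% for II and 18.2% for the subunits common to all.

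**Figure D4:**
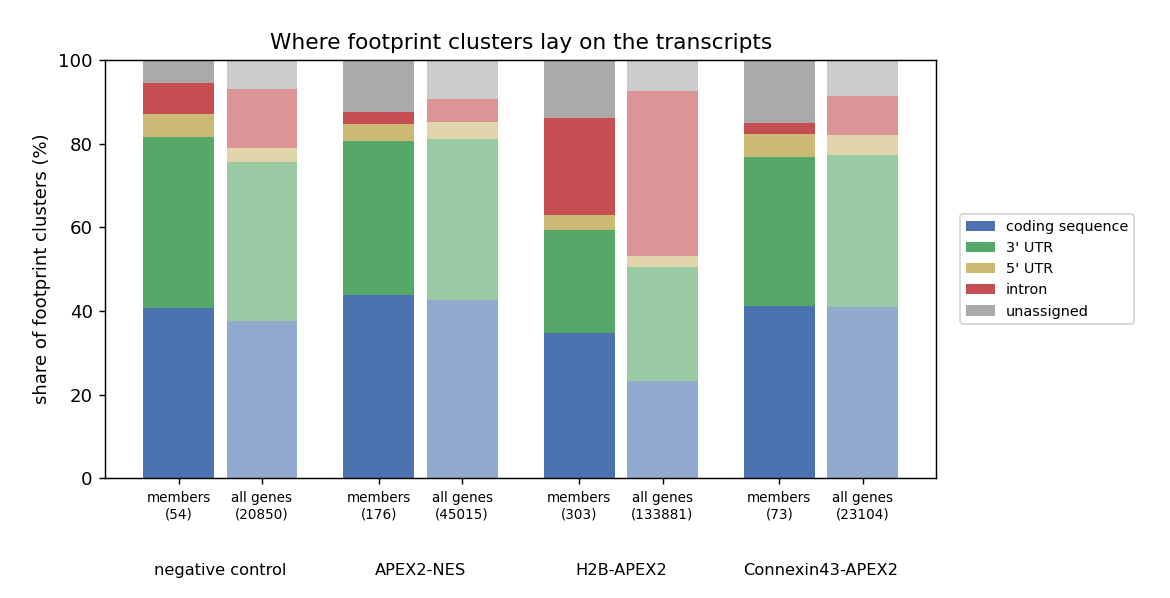
Share of footprint clusters (%) in coding sequence, 3' UTR, 5' UTR, intron or no given region, for the members (left bar of each pair) and all genes (right bar, paler) in the 4 lines, with the number of clusters in parentheses. Introns hold 23.1% of member clusters in H2B-APEX2 and 2.84% in APEX2-NES.

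As a share of each line's reads, 0 of 26 members with at least 10 reads over the pair were at least 4-fold higher in H2B-APEX2 than in APEX2-NES with an interval past 2-fold, and 2 were lower, against 6.69% higher and 9.44% lower of 9222 genes. The lower ones were POLR2I, with 22 reads in H2B-APEX2 and 47 in APEX2-NES and a ratio of 0.155 (0.0888 to 0.262), and POLR2E, with 88 and 153 reads and a ratio of 0.190 (0.145 to 0.249). Both were also lower in bound minus total RNA. On exonic reads alone POLR2E was at 0.115 (0.0483 to 0.247), while POLR2I had 12 and 7 reads and a ratio of 0.701 (0.255 to 2.10), which ends its call. POLR2L, lowest of the members in RNA, had 38 footprint reads in H2B-APEX2 and 9 in APEX2-NES, a ratio of 1.40 (0.664 to 3.28), so its interval reached from below to above equal shares. The median ratio over the 24 members with reads in both was 0.854, against 0.900 over all genes. The other 2, POLR3B with 15 reads and POLR2J3 with 13, had reads in H2B-APEX2 only and were counted apart.

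Against H2B-APEX2, Connexin43-APEX2 had 4 of 26 members at least 4-fold higher and 3 lower, with 9.79% and 3.63% of 9044 genes as background. The higher ones included POLR2I (ratio 8.78, 4.90 to 16.0), POLR2L (5.25, 3.16 to 8.67) and POLR2E (4.90, 3.51 to 6.81). POLR2I, POLR2L and POLR2E were higher in bound minus total RNA as well. The lower members were POLR2B with 4 reads against 230 (0.112, 0.0302 to 0.291), POLR2K with 4 against 151 (0.170, 0.0459 to 0.446) and POLR3A with 5 against 184 (0.175, 0.0561 to 0.416). On exonic reads POLR2K had an upper bound of 0.523 and no longer passed. Another 5 of the 26 had reads in H2B-APEX2 only and were counted apart, so they could not be called lower. They were POLR2F with 80 reads (upper bound of the ratio 0.304), POLR1E with 36 (0.694), POLR3G with 31 (0.813), POLR3B with 15 (1.79) and POLR2J3 with 13 (2.11).

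Against APEX2-NES, Connexin43-APEX2 had 1 of 22 members higher and 3 lower, against 3.45% and 2.23% of 6893 genes. POLR2L was higher, with 31 reads and 9, a ratio of 7.33 (3.41 to 17.5). POLR2B (0.161, 0.0422 to 0.436), POLR2K (0.181, 0.0474 to 0.495) and POLR3A (0.190, 0.0594 to 0.470) were lower, the same genes as against H2B-APEX2, with which the comparison shares its Connexin43-APEX2 library of 4, 4 and 5 reads. On exonic reads these 3 no longer passed, with ratios of 0.185, 0.185 and 0.252. POLR2F had 0 reads in Connexin43-APEX2 and 31 in APEX2-NES, with an upper bound of 0.269 on the ratio, and was counted apart because clusters were called in each line separately.

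**Figure D5:**
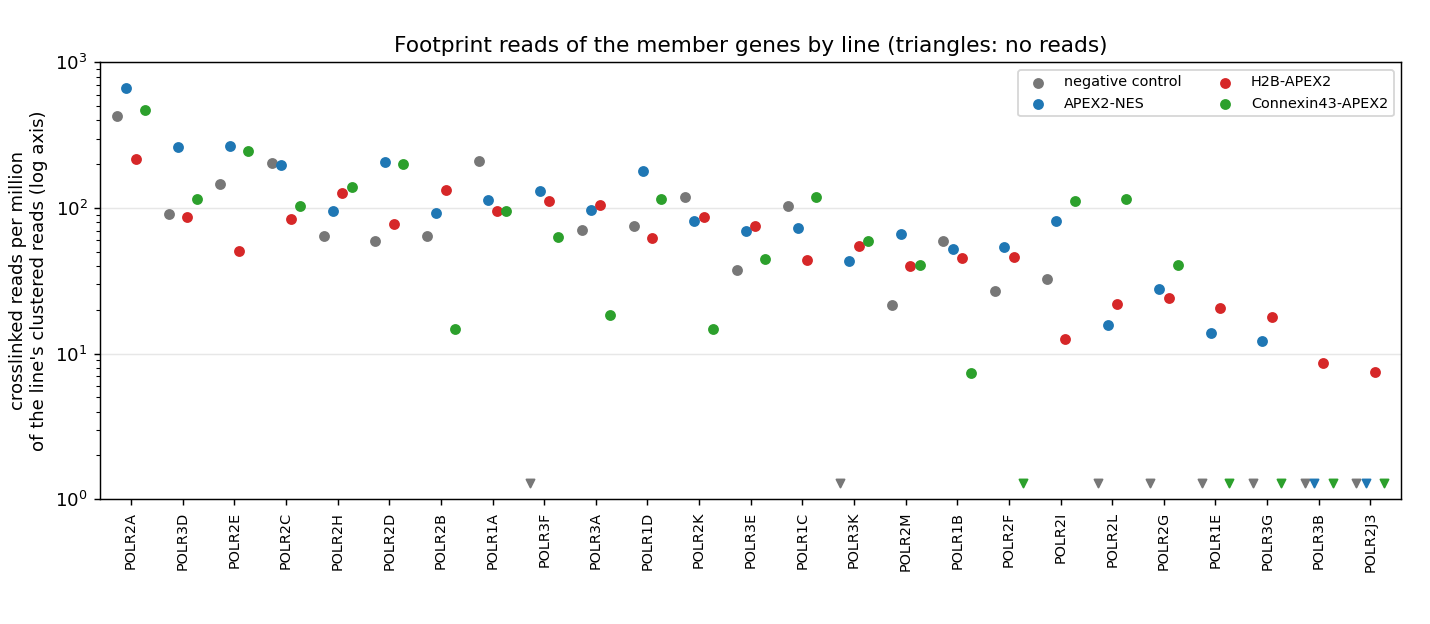
Crosslinked footprint reads of members with at least 10 reads over the lines, 1 of them not drawn, in RPM of the line's reads in clusters (log axis), with triangles where a line had none. POLR2E and POLR2I lie lowest in H2B-APEX2, at 50.5 and 12.6 RPM, and POLR2B, POLR2K and POLR3A lie lowest in Connexin43-APEX2, at 14.8, 14.8 and 18.5.

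Several members share sequence with other genes, the POLR2J2 entries and POLR2J3 over nearly their whole length. In GENCODE 29, 97.5% and 100% of the 50-base stretches of the POLR2J2 entries, 93.7% of POLR2J3 and 33.7% of POLR2J occur in transcripts of other genes, largely each other's and those of POLR2J4, and 31.7% of POLR2M occur in others, led by GCOM1. The full-length POLR2J2 entry had bound levels of 3.07 RPKM in the negative control, 2.85 with APEX2-NES, 2.25 with H2B-APEX2 and 0.940 with Connexin43-APEX2 in 2017, and POLR2J3 had 3.53, 3.81, 2.42 and 2.16. Their footprint reads were 4 and 13 over the lines, and POLR2J had 5. How the authors shared reads among such copies is not stated.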

How the data were processed

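Sequencing covered total RNA, bound RNA and footprints of 4 HEK293 T-REx lines. The submitters' processing notes name bcl2fastq 2.17.1, TopHat and hg19. The read counter, annotation and cluster caller were not given in any source used here. The authors deposited expected counts per gene (0 written as 0.001), RPKM (0 written as 1e-07) and, for footprints, counts of clusters and crosslinked reads with long and short footprints pooled.

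RNA libraries were compared on log2(RPKM + 1) for genes with a mean of at least 1 RPKM, bound minus total between fusion lines and bound alone against the negative control, centred on the median of all tested genes. The 2016 total RNA column names no line and cancels between lines. A gene was called when each table holding both lines put it at least 2-fold to the same side. Counting SEs came from the expected counts. Footprint shares were compared by ratio with exact binomial 95% intervals (4-fold, interval past 2-fold, at least 10 reads), and genes with reads in 1 line only were counted apart. Members and lists were chosen with earlier results of these data known. Every member could be named, and of the other lists the highest and lowest tested gene of a comparison. Alternatives were another pseudocount, other minimum levels, no centring, edgeR 4.0.16 TMM scaling, removal of a cubic GC trend, bound RNA alone, each table alone, and other footprint rules. The TMM setting with 50 reads and that without the 12-base entry were added after seeing the data. GC content and shared 50-base stretches are from GENCODE 29. Python 3.11.15, pandas 2.3.3 and scipy 1.17.1 were used. The rules were run on counts simulated with known fold changes and counting error only. That simulation held no GC trend and no spread between cultures, so it does not show how the rules perform on these data. The values of 1 member and the coding start of another are not reported here.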

Additional observations from a re-analysis of the deposited data

How the results depend on the processing

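No paired analysis was possible because each group holds 1 sample. Counts of members at least 2-fold higher or lower and medians of the members were recomputed under each alternative, as were the footprint counts and intron shares. A median counted as moved beyond 0.5. The all-gene median taken off by centring was 1.72 in 2016 between Connexin43-APEX2 and APEX2-NES and -1.64 between APEX2-NES and the negative control.

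In H2B-APEX2 minus APEX2-NES the count higher (1) was 2 with the pseudocount of 0.1, 3 on TMM-scaled CPM, 4 there with at least 50 reads, and 0 with a minimum of 5 RPKM, in bound RNA alone or without the 12-base entry. The count lower (4) was 8 with at least 50 reads. The median (-0.65) was -1.47 with a minimum of 5 RPKM, -0.12 with none and -0.0431 with the GC trend removed.

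In Connexin43-APEX2 minus APEX2-NES the count higher (0) was 1 with no minimum or no centring (POLR2I in each) and 2 in 2017 alone. The count lower (0) was 1 in 2016 alone and 2 in 2017 alone. The median over both tables (0.06) was -0.0251 with a minimum of 5 RPKM, 0.63 with none and 0.84 with no centring.

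In Connexin43-APEX2 minus H2B-APEX2 the count lower (0) was 1 with the pseudocount of 0.1, no minimum, no centring or bound RNA alone (POLR2K in each), 1 with the GC trend removed (POLR2J2), 2 on TMM-scaled counts and 5 with at least 50 reads. The median (0.62) was 2.06 with a minimum of 5 RPKM and 0.10 with none.

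In H2B-APEX2 minus the negative control the count higher (1) was 2 with the pseudocount of 0.1 and on TMM-scaled counts, 4 with at least 50 reads, and 0 with a minimum of 5 RPKM, no minimum, no centring or the GC trend removed. The count lower (3) was 1 with the GC trend removed and 6 with at least 50 reads. The median (-0.06) was -1.53 with a minimum of 5 RPKM.

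In APEX2-NES minus the negative control the count higher (0) was 1 in 2016 alone, and the count lower (0) was 1 in each table alone. The median over both tables (0.13) was -0.53 with no minimum and -0.77 with no centring. In Connexin43-APEX2 minus the negative control the count higher (0) was 1 with the pseudocount of 0.1 and on TMM-scaled counts with or without the 50 reads (POLR2E in each), and 5 in 2016 alone. The count lower (0) was 1 with no minimum or no centring (the 12-base entry) and 2 in 2016 alone. The median over both tables (0.18) was -0.0685 with no minimum, -0.0822 with no centring and -0.0662 in 2017 alone.

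For footprints, 2-fold with the interval past 1 gave 8 lower (2) in H2B-APEX2 against APEX2-NES, 2 higher (1) and 6 lower (3) in Connexin43-APEX2 against APEX2-NES and 7 higher (4) in Connexin43-APEX2 against H2B-APEX2. Exonic reads alone gave 1 lower in the first, and 2 higher and 0 lower in the second. The intron share in H2B-APEX2 was 13.4% by reads. Where no reason is given by the alternative itself, the cause was not tested. POLR2L and POLR2E stayed at least 2-fold lower in H2B-APEX2 minus APEX2-NES under every alternative run. Depth limits values that rest on few reads, such as POLR3F with 2 bound reads in Connexin43-APEX2 and POLR3GL with 1 in the negative control of 2017. With 1 sample a group the spread between cultures is unknown.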
